A study of Rattus norvegicus with 20 samples.

Results

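The genes described here are the CYP1 enzymes Cyp1a1, Cyp1a2 and Cyp1b1, the dioxin receptor Ahr with its partner Arnt, its repressor Ahrr and its target Tiparp, and Por, the reductase that feeds electrons to microsomal cytochromes P450. They were chosen by symbol: every probe set annotated with 1 of these names and no other was taken, which gave 11 probe sets for 8 genes, of 31042 probe sets and 14217 named genes. Ahr, Tiparp and Por have 2 probe sets each and the others 1. Where a gene has several, the brightest by mean log2 signal stands for it, and the dimmer one is given beside it.

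RNA came from the nasal lining of untreated, genetically unmodified adult Sprague-Dawley rats, an outbred stock, and the study compared the tissues and the sexes for genes that handle inhaled chemicals. Olfactory epithelium, which holds the scent-sensing neurons, gave 2 female arrays (rats aged 13 and 14 weeks) and 6 male arrays (11 to 14 weeks). Respiratory epithelium gave 6 female arrays (11 to 14 weeks) and 6 male arrays (11 to 14 weeks). By the numbers in their labels these 20 arrays stem from 13 rats, 6 female and 7 male, and 2 of the females and 5 of the males were sampled for both tissues. The design text gives 9 rats per sex. The epithelium was collected by hand, so each sample can hold other cell types, and in such bulk RNA fewer cells of a type and less RNA per cell cannot be told apart.

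Some properties of the arrays moved with the tissue or set single arrays apart. The RNA integrity number, which grades RNA from degraded to intact, was known for 17 arrays. The numbers were 8.3 on both female olfactory arrays against 8.7 to 9.3 on the female respiratory ones, and 8.2 to 8.8 on 5 male olfactory arrays against 9.1 to 9.3 on 4 male respiratory ones, so they did not overlap between the tissues within either sex, though 2 male olfactory arrays, at 8.8, lay above 2 female respiratory arrays at 8.7. Female respiratory 8 (-113.3) and male respiratory 7 (-97.5) lay apart from the other respiratory arrays on the second principal component, which carried 15.8% of the variance. The male olfactory arrays were spread on it too and split by age. They lay at 40.6 to 84.4 in rats of 11 weeks and at -68.1 to 4 in those of 13 and 14 weeks. All 8 measured markers of mature olfactory neurons were higher in olfactory tissue in both sexes, as the tissue labels would have it, but 7 of the 8 were over background on every respiratory array and Cnga4 on 4 of 6 in each sex. Their summed signal was 78300 to 79279 on female olfactory arrays against 3973 to 25866 on female respiratory ones, and 66387 to 76942 on male olfactory arrays against 2815 to 12477 on male respiratory ones. Background is the level of bacterial control probe sets that have no target in rat RNA, and lay between signals of 28.2 and 64.9 by array.

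In the dioxin receptor pathway, planar foreign chemicals and some natural indoles bind the aryl hydrocarbon receptor, the product of Ahr, which waits in the cytoplasm with chaperones. The bound receptor moves to the nucleus, pairs with Arnt and binds short DNA elements near its target genes, of which the CYP1 enzymes are the best known. Ahrr competes with the receptor for Arnt, and Tiparp modifies the receptor and lowers its activity, so both act as brakes. CYP1 enzymes oxidise aromatic compounds, which can detoxify them or turn them into reactive products. Cyp1a2 is known as a constitutive enzyme of liver and of the olfactory mucosa, and Cyp1a1 and Cyp1b1 as enzymes that inducers raise in many tissues.

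The DNA before these genes is shown because the receptor acts through it and because the genes differ in how often they carry its core element. RefSeq promoter windows of the GRCr8 build, 250 bases before to 50 bases after the start, were at hand for 7 of the 8 genes: Cyp1a2, Cyp1b1, Ahr, Arnt, Ahrr, Tiparp and Por. The core searched was GCGTG on both strands, which reads CACGC where the match is on the other strand. Capitals mark it in the windows of the CYP1 genes and of Por, each printed 5′ to 3′ on the gene's own strand. Cyp1a2 lies at chr8:66978100-66978399 on the minus strand, Cyp1b1 at chr6:21094315-21094614 on the plus strand and Por at chr12:26635760-26636059 on the minus strand.
Cyp1a2: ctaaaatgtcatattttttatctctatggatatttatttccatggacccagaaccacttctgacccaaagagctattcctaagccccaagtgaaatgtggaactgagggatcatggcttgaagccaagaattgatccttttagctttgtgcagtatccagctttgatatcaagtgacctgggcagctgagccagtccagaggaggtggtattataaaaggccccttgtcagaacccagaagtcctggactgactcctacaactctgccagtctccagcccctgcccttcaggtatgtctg
Cyp1b1: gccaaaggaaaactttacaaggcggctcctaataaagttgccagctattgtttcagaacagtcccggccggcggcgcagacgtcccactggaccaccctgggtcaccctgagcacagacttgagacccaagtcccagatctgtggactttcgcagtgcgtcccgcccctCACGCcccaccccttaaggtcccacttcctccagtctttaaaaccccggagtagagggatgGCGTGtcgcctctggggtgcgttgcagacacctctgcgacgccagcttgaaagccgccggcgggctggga
Por: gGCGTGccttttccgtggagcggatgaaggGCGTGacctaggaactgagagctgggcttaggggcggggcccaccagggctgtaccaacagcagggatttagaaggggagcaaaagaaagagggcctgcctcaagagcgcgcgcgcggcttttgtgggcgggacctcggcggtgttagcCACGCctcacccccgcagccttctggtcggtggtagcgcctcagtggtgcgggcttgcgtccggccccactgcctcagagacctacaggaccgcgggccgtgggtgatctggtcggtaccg

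The Cyp1a2 window held 0 matches of the core, the Cyp1b1 window 2 and the Por window 3. Ahrr also held 3, Arnt and Tiparp 1 each, and Ahr 0, so 5 of the 7 windows held at least 1, against 29.7% of all 33469 windows of this length. The windows with a match had a GC content of 57.3% (Arnt) to 72.7% (Tiparp), against a median of 51.7% over all windows. Those without a match were at 46.3% (Cyp1a2) and 74.7% (Ahr). The windows were not matched for base composition, and its part in these counts was not tested. In Cyp1b1 the matches began at -81 and -20 relative to the start, and in Ahrr at -142, -117 and -57. A longer form, TNGCGTG, which contains the core, was found in 2 of the 7 windows, those of Cyp1b1 and Ahrr, and in 4.9% of all windows. A match is a run of letters in a short window and no evidence of binding, and Cyp1a1 and Cyp1a2 are neighbours on chromosome 8 with 0 annotated genes between them in that annotation.

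The tissue comparison gave 3 genes that were higher in olfactory epithelium in both sexes, Cyp1a1, Cyp1a2 and Por, and 2 that were lower in both, Ahr and Arnt. In females, 3 of the 11 probe sets were called higher and 3 lower, against a background of 17.9% of all probe sets called in either direction (7.64% higher and 10.3% lower). In males, 4 were called higher and 2 lower, against 25.2% of all probe sets called (11.6% higher and 13.6% lower). A call is an adjusted p under 0.05 from limma, two-sided, with Benjamini-Hochberg adjustment over all 31042 probe sets, and every change below is a difference of mean log2(signal + 16), with the standard error (SE) of that fit. By gene rather than by probe set, 3 of 8 were higher and 3 lower in females, against 22.5% of all genes called (10.9% higher and 11.6% lower), and 3 of 8 were higher and 2 lower in males, against 31.8% (14% higher and 17.8% lower). The groups did not overlap for 7 of the 11 probe sets in females, where 30.3% of all probe sets did not overlap, and for 2 of 11 in males, against 13.4%. With 2 female olfactory arrays, non-overlap is easily reached.

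Cyp1a2 was higher in olfactory tissue in both sexes. Its signal was 17896 and 19685 on the female olfactory arrays, against 1081 to 6448 (median 2737) on the 6 female respiratory arrays. On the 6 male olfactory arrays it was 14244 to 19915 (median 17191), against 815 to 5398 (median 1243) on the male respiratory arrays. Every olfactory array thus lay above every respiratory array of either sex. The olfactory arrays lay close together, with log2 means of 14.20 ± 0.10 (SD, n = 2) in females and 14.05 ± 0.16 (SD, n = 6) in males, while the respiratory arrays were spread wide, at 11.26 ± 0.95 (SD, n = 6) and 10.70 ± 1.15 (SD, n = 6). The change was 2.94 in females (SE 0.60, limma adjusted p 0.00142) and 3.35 in males (SE 0.42, limma adjusted p 2.33e-06). Counted from the highest change, Cyp1a2 stood 86th in females and 77th in males among the 14217 genes.

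Cyp1a1, the neighbour gene and the classic marker of receptor activation, differed in the same direction at a smaller size. Its signal was 544 and 585 on the female olfactory arrays, against 63.7 to 240.5 (median 185) on the female respiratory ones. Male olfactory arrays read 303 to 740 (median 388), against 50.6 to 180 (median 129) on male respiratory arrays, 1 of which was under background. Again no olfactory array overlapped a respiratory one. The log2 change was 1.74 in females (SE 0.45, limma adjusted p 0.00942) and 1.90 in males (SE 0.32, limma adjusted p 8.96e-05). The female call rests on both olfactory arrays, since leaving out either one raised the adjusted p, to 0.0696 without female olfactory 8 and 0.11 without female olfactory 6.

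Cyp1b1, a CYP1 enzyme known from steroid-producing and connective tissues, did not share this pattern. Its signal was 132 and 135 on the female olfactory arrays, against 178 to 331 (median 263) on the female respiratory ones. Male olfactory arrays read 121.5 to 198 (median 170.4), against 125 to 297 (median 217) on the male respiratory arrays, and these overlapped. The log2 change was -0.89 in females (SE 0.31, limma adjusted p 0.0478), just past the threshold, and -0.37 in males (SE 0.22, limma adjusted p 0.235, 95% interval -0.82 to 0.08). Leaving out any 1 female array other than female respiratory 9 ended the female call, with adjusted p up to 0.238, and quantile normalization gave -0.63 with an adjusted p of 0.179.

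**Figure D1:**
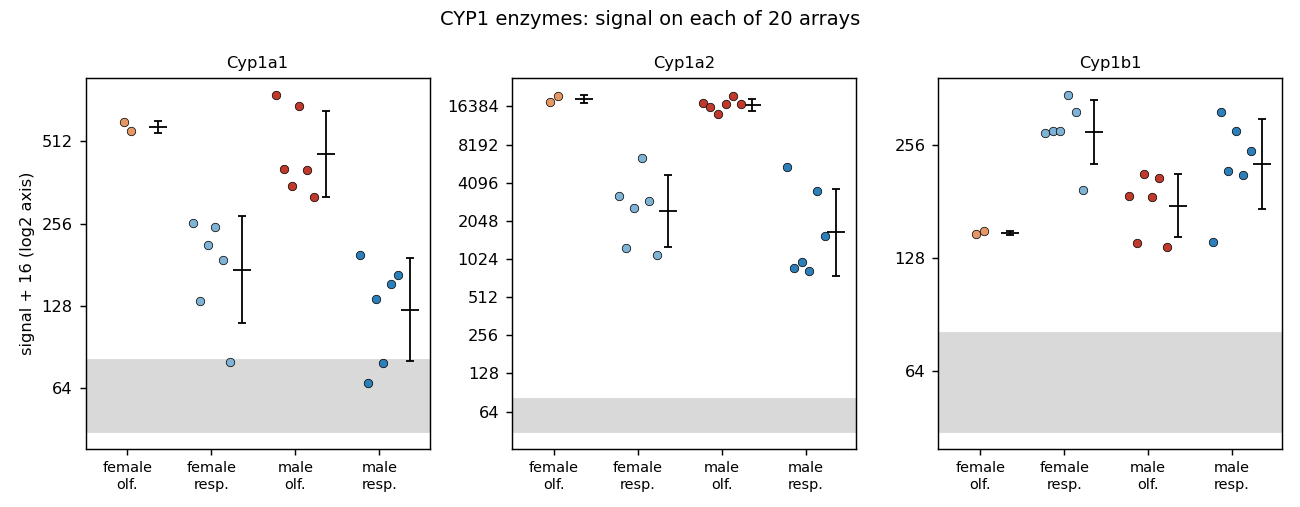
Signal + 16 of the 3 CYP1 genes on a log2 axis, 1 point per array, in female olfactory (2 arrays), female respiratory (6), male olfactory (6) and male respiratory (6) tissue. Bars to the right of the points give the mean and SD of the log2 values and the grey band is the range of array backgrounds; Cyp1a2 and Cyp1a1 do not overlap between the tissues, while Cyp1b1 does in males.

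Ahr, the receptor itself, fell in olfactory tissue by its brighter probe set. Probe set 1369146_a_at gave 40.7 and 63.4 on the female olfactory arrays, 1 of them under background, against 112 to 382 (median 329) on the female respiratory arrays. In males it gave 8.12 to 178 (median 125) on the olfactory arrays, 1 of them under background, against 150 to 374 (median 305) on the respiratory arrays. The male groups overlapped only slightly, since male olfactory 1 at 178 lay above male respiratory 7 at 150. The log2 change was -2.15 in females (SE 0.56, limma adjusted p 0.00962) and -1.50 in males (SE 0.40, limma adjusted p 0.00667), and without female olfactory 6 the female call was lost (-1.91, adjusted p 0.145). Over the males of 11 weeks alone it was -0.90 (limma adjusted p 0.0225). The other Ahr probe set, 1369147_at, lay near background on many arrays and was not called, at -0.98 in females (limma adjusted p 0.364) and -0.40 in males (limma adjusted p 0.619). Where 2 probe sets of a gene disagree, the files alone do not say which part of the transcript each one reads.

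Arnt, the receptor's DNA-binding partner, was lower as well. Both female olfactory arrays, at 4.38 and 5.85, were under background. The female respiratory arrays read 64.1 to 187 (median 135), 5 of the 6 over background. The difference there is therefore given as a bound: Arnt was at least 2.2-fold lower. The limma adjusted p of 0.00199 is not that of the bound but of the fit of the signals as read, where the log2 change was -2.75. Male olfactory arrays read 6.30 to 107 (median 21.9), 2 of the 6 over background, against 34.8 to 185.5 (median 127) on male respiratory arrays. The male groups overlapped: male olfactory 3 at 107 and male olfactory 1 at 54.8 lay above male respiratory 7 at 34.8. The male log2 change was -1.45 (SE 0.41, limma adjusted p 0.0109). With each animal as a fixed block, over the 5 males that gave both tissues, it was -1.10 and no longer called (limma adjusted p 0.121), as over the males of 11 weeks alone (-0.98, limma adjusted p 0.288).

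The 2 genes known as brakes on the receptor showed no called tissue difference. Ahrr lay under background on all olfactory arrays of both sexes, at 7.04 and 20.3 in females and 3.94 to 48.3 in males. On respiratory arrays it was over background on 2 of 6 female and 1 of 6 male arrays, at 16.7 to 44.9 and 3.48 to 47.6, so this array gave no usable comparison for it (limma adjusted p 0.308 in females and 0.987 in males). Tiparp was well above background everywhere. Its brighter probe set read 702 and 985 on the female olfactory arrays, against 710 to 1127 (median 817) on the female respiratory ones, and 568.4 to 929 (median 758) on male olfactory arrays, against 403 to 914 (median 844) on male respiratory ones. The log2 change was -0.01 in females (SE 0.27, interval -0.58 to 0.56, limma adjusted p 0.985) and 0.02 in males (SE 0.19, interval -0.38 to 0.42, limma adjusted p 0.957). The second Tiparp probe set gave 0.11 in females and -0.01 in males, neither called.

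Por, the electron donor of all microsomal P450 enzymes, rose in olfactory tissue. Probe set 1387109_at read 7818 and 10770 on the female olfactory arrays, against 1462 to 6886 (median 4250) on the female respiratory ones. Male olfactory arrays read 4859 to 11042 (median 7991), against 2716 to 5609 (median 3553) on the male respiratory arrays, and the male groups overlapped. The log2 change was 1.35 in females (SE 0.44, limma adjusted p 0.0354) and 1.05 in males (SE 0.31, limma adjusted p 0.0142). The second probe set gave similar sizes, 1.20 in females (limma adjusted p 0.0788, not called) and 0.98 in males (limma adjusted p 0.032). By the brighter probe set, male olfactory signals were 4859 to 6154 in rats of 11 weeks and 9827 to 11042 in those of 13 and 14 weeks. Male respiratory signals overlapped between these ages, at 2867 to 3841 and 2716 to 5609. The male olfactory arrays also split by age over all probe sets, on the second principal component, and an effect of age on Por was not tested. Over the males of 11 weeks alone the change was 0.73 (limma adjusted p 0.00596), and 0.69 (0.0148) by the second probe set. Calls on Por were not firm: the female one was lost without either olfactory array, without female respiratory 4 or without female respiratory 9 (adjusted p 0.0542 to 0.301) and under quantile normalization (1.14, adjusted p 0.0585), and the male call of the second probe set was lost when any of 6 single arrays was left out (male olfactory 4, 7 or 10 or male respiratory 1, 2 or 4, adjusted p 0.0604 to 0.0767).

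**Figure D2:**
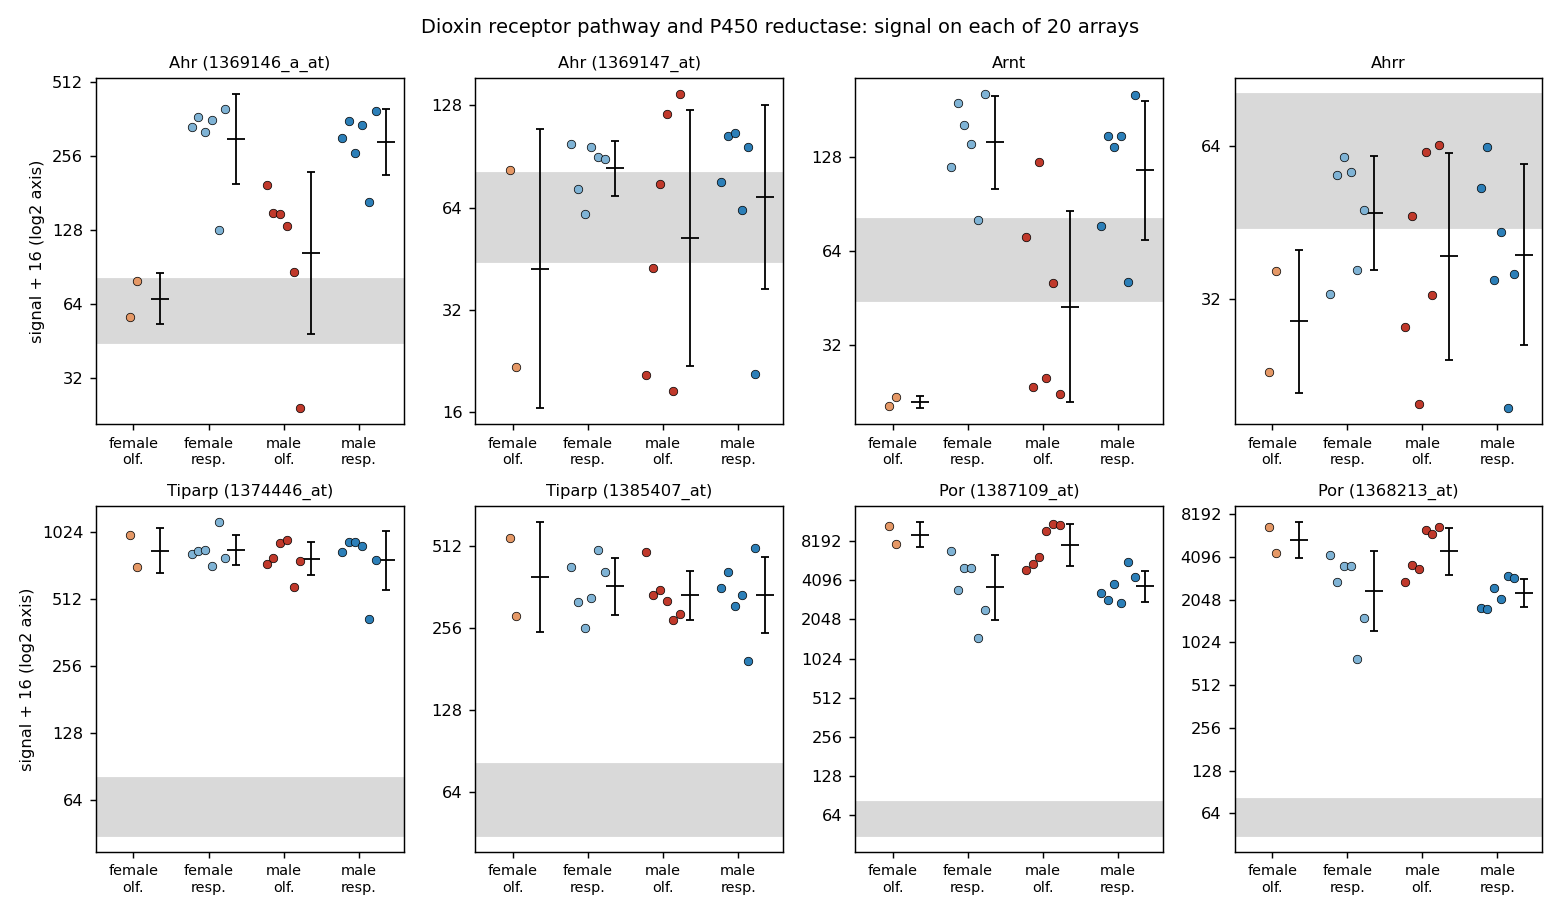
Signal + 16 of the 8 probe sets of Ahr, Arnt, Ahrr, Tiparp and Por on log2 axes that differ between panels, 1 point per array, with the same group order, mean and SD bars and background band (grey) as for the CYP1 genes. The brighter Ahr probe set and Arnt sit lower on olfactory arrays, partly in or under the band, while the dimmer Ahr probe set overlaps between the tissues. Ahrr lies in or under the band on every array, Tiparp is level and Por is higher on olfactory arrays.

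RNA quality was set beside these changes by adding the RNA integrity number to the fit over the 17 arrays that have one. In males Cyp1a2 kept its call (2.91, limma adjusted p 0.00162), while Cyp1a1 (1.47, limma adjusted p 0.133), Ahr (-1.02, 0.487), Arnt (-1.39, 0.271) and Por (1.06, 0.347) lost theirs. Without the number on these arrays, the male changes were 4.04 for Cyp1a2, 2.03 for Cyp1a1, -1.77 for Ahr, -1.74 for Arnt and 1.09 for Por. In females all 6 calls were lost. Of these, Cyp1a2 was at 1.76 (limma adjusted p 0.0852), Cyp1a1 at 1.16 (0.358) and Ahr at -1.37 (0.417), smaller than without the covariate. Por at 1.31 (limma adjusted p 0.325) and Arnt at -2.39 (0.0966) were close to their values without it, and Cyp1b1 at -1.23 (0.102) was larger. None of the called changes turned its sign, while uncalled ones did, such as the dimmer Ahr probe set in males (0.45, limma adjusted p 0.84). On the same 17 arrays the covariate left 1133 called probe sets in females and 2347 in males, against 6235 in females and 7203 in males without it. Within each sex the numbers do not overlap between the tissues, so there RNA quality and tissue cannot be told apart.

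**Figure D3:**
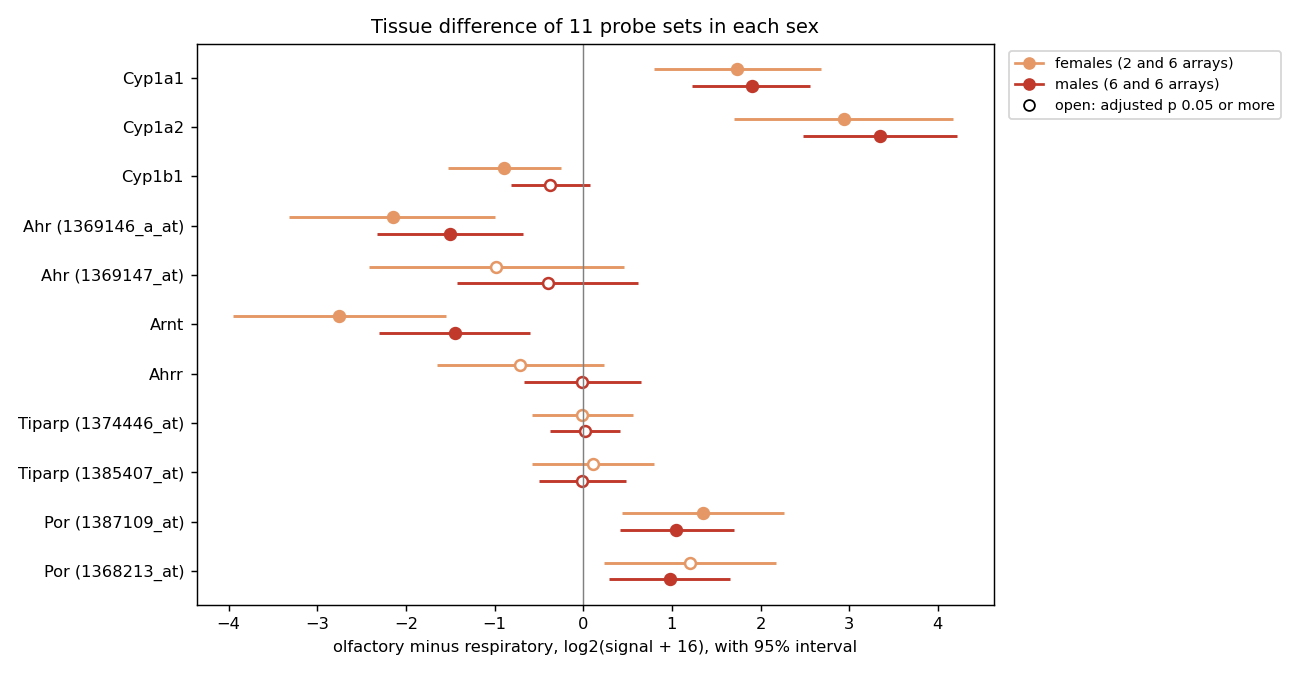
Olfactory minus respiratory difference in log2(signal + 16) of each of the 11 probe sets, with its 95% interval, for females (2 and 6 arrays, upper of each pair) and males (6 and 6 arrays, lower). Filled points have an adjusted p under 0.05; the female and male intervals overlap for every probe set.

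The same pattern was seen within animals. In the 7 rats that gave both tissues, Cyp1a2 was higher in the olfactory sample of 7 of 7, by 1.68 to 4.37 on the log2 scale, with 2.80 and 2.74 in the females. Cyp1a1 was higher in 7 of 7, by 1.38 to 3.12, and Por in 7 of 7 with both of its probe sets, by 0.57 to 2.41 with the brighter one. Ahr was lower in 7 of 7 with its brighter probe set, by -2.49 to -0.64. Its dimmer probe set was lower in 5 and higher in 2, with differences from -2.39 to 0.94. Arnt read lower in 7 of 7, but by only -0.16 to -0.01 in males 1, 3 and 7, against -2.99 and -1.88 in the females and -2.66 and -2.57 in males 2 and 4. Both Arnt samples of male 7 were under background, so its -0.01 is no measured difference. The olfactory samples of males 2 and 4 and of both females were under background too, so the sizes of their differences are not exact. Cyp1b1 was lower in 6 of 7, but by only -0.03 in males 3 and 7, and higher in male 1 (0.40). Tiparp was higher in 3 and lower in 4 with its brighter probe set. The pairs of female 8 and male 7 include the respiratory arrays that stand apart, and the 2.41 of Por is that of female 8. These 7 rats are among those of the group comparison and are no independent check of it.

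**Figure D4:**
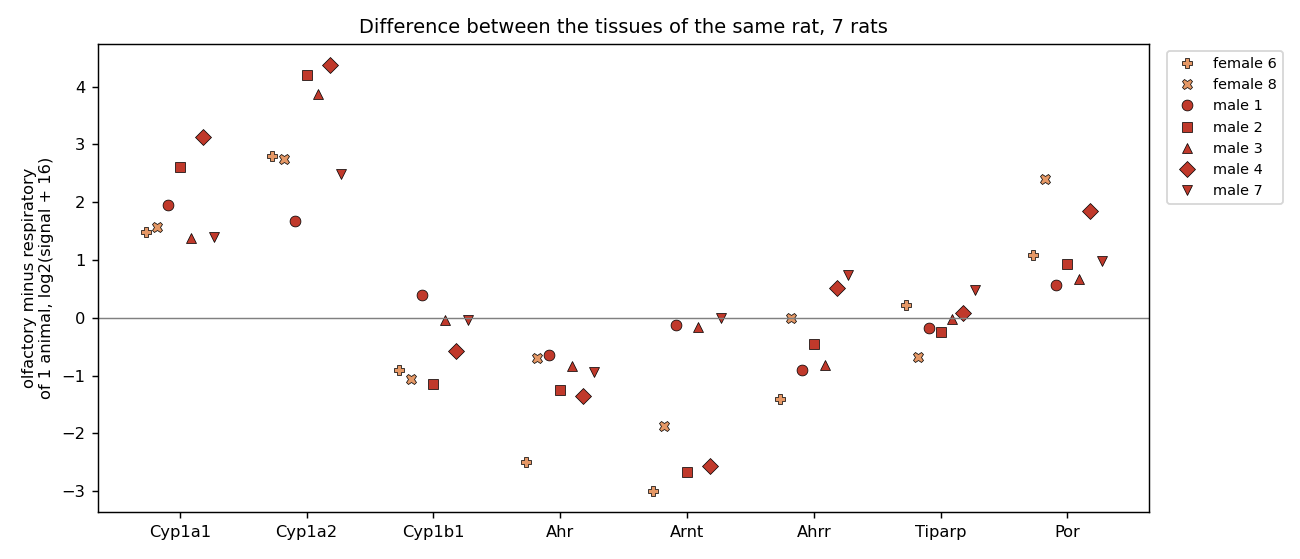
Difference between the olfactory and the respiratory sample of the same rat, in log2(signal + 16), for the brightest probe set of each gene; each symbol is 1 rat (2 females, 5 males). All 7 points lie above 0 for Cyp1a1, Cyp1a2 and Por and below 0 for Ahr and Arnt. For Arnt both samples of male 7 were under background, as were the olfactory samples of several other rats.

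The sexes did not differ detectably in any of these genes. Female minus male changes in olfactory tissue ran from -1.01 for Arnt to 0.33 for Cyp1a1, and all 11 had a limma adjusted p of 0.969 to 0.984, against 0.0419% of all probe sets called. In respiratory tissue they ran from -0.03 for Por to 0.56 for Cyp1a2, all with limma adjusted p of 1, against 0.0258% of all probe sets called. By gene, 0.0211% of all genes were called in olfactory tissue and 0.0141% in respiratory tissue, and 0 of the 8. The sexes did not overlap for 1 of 11 probe sets in olfactory tissue (Arnt, under background on both female arrays), against 5.85% of all probe sets, and for 0 of 11 in respiratory tissue, against 0.277%. For both Cyp1a2 and Cyp1a1 the means ran, from high to low, female olfactory, male olfactory, female respiratory, male respiratory, and neighbours of the same tissue in this order did not differ beyond their spread. No member reached an unadjusted p under 0.05 either (0 of 11 in each tissue). The intervals are wide: for Cyp1a2 the female minus male change was 0.15 in olfactory tissue (interval -1.08 to 1.38) and 0.56 in respiratory tissue (interval -0.31 to 1.43). Whether the tissue difference depends on sex was tested as an interaction, with 0 of 11 members called, 0% of all probe sets called, and limma adjusted p from 0.924 to 0.995. The lowest was that of Arnt (-1.30, SE 0.71), whose female olfactory arrays are at background.

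Respiratory levels of Cyp1a2 varied 7.91-fold between arrays, from 815 on male respiratory 4 to 6448 on female respiratory 7, and those of Cyp1a1 lay between a signal under background, 50.6 on male respiratory 2, and 240.5 on female respiratory 3. Because the neuron markers also varied across these arrays, their mean log2 level was set against each of the 8 genes over the 12 respiratory arrays, 1 per rat (8 correlations, two-sided permutation tests with 100000 resamples, Benjamini-Hochberg adjustment over the 8). Cyp1a2 followed the markers (Pearson r 0.86, p 0.00031, adjusted 0.00248; Spearman rho 0.85, p 0.00086, adjusted 0.00344). Cyp1a1 did so too (Pearson r 0.78, p 0.00352, adjusted 0.0141; Spearman rho 0.88, p 0.00028, adjusted 0.00224). Of 12439 other genes, 0.515% had an r as high as that of Cyp1a2 and 1.3% one as high as that of Cyp1a1. The remaining 6 genes had adjusted p of 0.739 or more by Pearson's r, with Por at 0.34 and Ahr at 0.00. Without the 2 arrays that stand apart, an alternative added after the values were seen, Por was at r 0.65 (permutation p 0.0462, adjusted 0.103) and Tiparp at r -0.63 (adjusted p 0.103) with a rho of -0.77 that passed (permutation p 0.0125, adjusted 0.0334), while Cyp1a2 was at r 0.95 and Cyp1a1 at 0.80.

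Within each sex Cyp1a2 had r 0.95 over the 6 female arrays (exact permutation p 0.00833, adjusted 0.0667) and 0.86 over the 6 male arrays (exact permutation p 0.00556, adjusted 0.0444). Cyp1a1 had 0.81 and 0.65, with adjusted exact permutation p of 0.172 and 0.341. Without female respiratory 3 and 7, the arrays farthest from the median marker level, r was 0.83 for Cyp1a2 (permutation, adjusted p 0.0298) and 0.69 for Cyp1a1 (adjusted p 0.0883), so for Cyp1a1 Pearson's r passes the threshold only with those arrays, while its rho of 0.81 still passed (adjusted p 0.0282). With 7 sustentacular cell markers in place of the neuron markers, an alternative added after the values were seen, r was 0.96 for Cyp1a2 and 0.85 for Cyp1a1. Sustentacular cells are the supporting cells of olfactory epithelium, known to be rich in P450 enzymes. Their summed marker signal was 95629 to 101830 on female olfactory arrays against 36692 to 76826 on female respiratory ones, and 90492 to 110336 on male olfactory arrays against 33166 to 72733 on male respiratory ones. Their 7 measured markers did not move as one: 2 were called higher and 1 lower in females, and 3 higher and 1 lower in males. Over all genes, 10.9% were called higher and 11.6% lower in females, and 14% higher and 17.8% lower in males. Ermn was called higher in both sexes, Steap4 was called lower in both (-1.41 in females and -1.19 in males), and Notch2 was at -1.11 and -1.07, not called. The part of such cells in the tissue difference and in the respiratory spread was not tested.

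**Figure D5:**
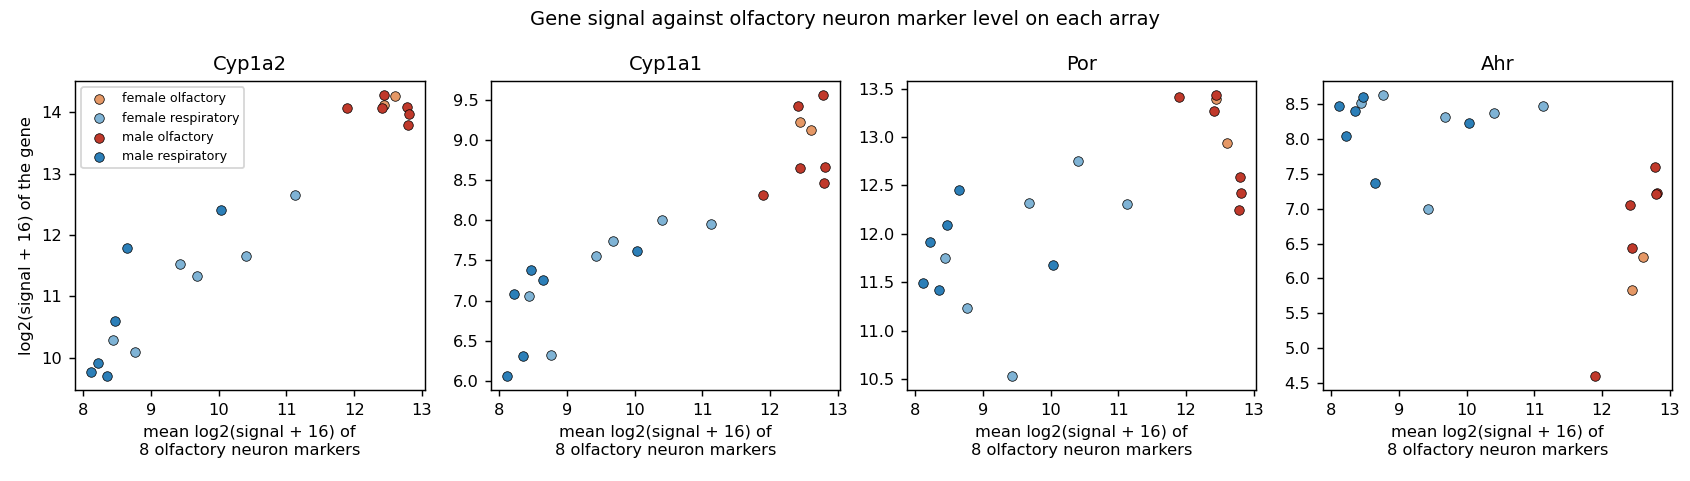
Log2(signal + 16) of Cyp1a2, Cyp1a1, Por and Ahr (vertical, scales differ) against the mean log2(signal + 16) of 8 olfactory neuron markers (horizontal), 1 point per array, coloured by sex and tissue. Among the 12 respiratory arrays Cyp1a2 and Cyp1a1 are higher where the markers are higher (r 0.86 and 0.78), while Por (r 0.34) and Ahr (r 0.00) show no such relation that passes the test.

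Several lists of markers of other cells had genes called lower in olfactory tissue, as Ahr and Arnt were. Their counts are to be read against the shares of all genes. These were 10.9% called higher and 11.6% lower in females, and 14% higher and 17.8% lower in males. Leukocyte markers were called lower in olfactory tissue for 4 of 6 in females and 6 of 6 in males. Their summed signal was 5001 to 7119 on female olfactory arrays against 15041 to 50934 on female respiratory ones, and 4763 to 9777 on male olfactory arrays against 24172 to 47142 on male respiratory ones. Connective tissue markers were called lower for 4 of 6 in females and 5 of 6 in males, with summed signals of 12163 to 12622 on female olfactory arrays against 22587 to 38868 on female respiratory ones, and 11721 to 22101 on male olfactory arrays against 24539 to 45672 on male respiratory ones. Itgam, a leukocyte marker, was under background on every olfactory array of both sexes, while the 6 connective tissue markers were over it on all arrays. Basal cell markers were called lower for 2 of 5 in females and 4 of 5 in males, with summed signals of 5512 to 8574 on female olfactory arrays against 26270 to 32743 on female respiratory ones, and 3018 to 10864 on male olfactory arrays against 20153 to 66271 on male respiratory ones. Squamous markers were called lower for 2 of 6 in females and 3 of 6 in males, goblet and secretory markers for 3 of 8 and 4 of 8, endothelial markers for 3 of 5 in each sex, and ciliated cell markers for 0 of 4 and 1 of 4. No marker of these 7 lists was called higher (0 in either sex). Their part in the levels of Ahr, Arnt, Cyp1b1 and the target genes was not tested.

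Genes whose array-to-array deviations from the group means most resembled those of each member were looked up among 12440 genes over 20 arrays. For Cyp1a2 they were Cyp2g1, a P450 of olfactory mucosa (Pearson r 0.94), Bpifb4 (0.94), a secreted protein of the nasal glands, and Gdf11 (0.93), a growth factor, and 2 of these 3 (Cyp2g1 and Bpifb4) stand in the marker lists for supporting and gland cells. For Cyp1a1 they were Mkrn2 (0.82), Galnt13 (0.81) and the P450 gene Cyp2b21 (0.81), and over the 12 respiratory arrays alone Hs3st5 (0.92), Cyp2a3 (0.91) and Mkrn2 (0.90). For Por they were Stim1 (0.92), Bod1 (0.91) and Kctd15 (0.90), and over the respiratory arrays Susd4 (0.98), Alas1 (0.96), which makes the first step of haem synthesis, and Bod1 (0.96). Ahr resembled Psmc5 (0.95) most, Arnt resembled Lmo7 (0.83), Cyp1b1 resembled Glb1l (0.77), Tiparp resembled Denr (0.95) and Ahrr resembled Wnt6 (0.77). Among the members themselves the closest pairs were Cyp1a1 with Cyp1a2 (0.71) and Ahr with Arnt (0.60). The points share array, scaling and RNA quality, and the values carry no test.

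Of the receptor's chaperones, partners and cofactors, 21 of 24 were measured. In females 0 were called higher and 5 lower, with a median change of -0.48, and in males 2 were called higher and 2 lower, with a median of -0.20, against medians of -0.03 and -0.05 over all genes. Of all genes, 10.9% were called higher and 11.6% lower in females, and 14% higher and 17.8% lower in males, the shares against which this and the following lists are to be read. The 4 called of 21 in males are a smaller share than the 31.8% of all genes. Ncoa3, a coactivator, was lower in both sexes. It was at least 3.67-fold lower in females, where both olfactory arrays were under background. The fit of the signals as read gave a limma adjusted p of 0.015 there. In males Ncoa3 changed by -1.49 on the log2 scale (SE 0.43, limma adjusted p 0.0121). The female call was lost without female olfactory 6 (adjusted p 0.202) or 8 (0.0557). With the RNA integrity number in the fit, Ncoa3 was at -0.82 in females (limma adjusted p 0.647) and -0.19 in males (0.922), and over the males of 11 weeks alone at -0.51 (0.22). The related coactivator Ncoa1 was 0.35 in females (limma adjusted p 0.622) and rose by 1.19 in males (SE 0.29, limma adjusted p 0.0039). Arnt2, the paralogue of Arnt known from neurons, was 0.89 in females (limma adjusted p 0.101) and rose by 1.07 in males (SE 0.26, limma adjusted p 0.00372), where Arnt fell, but was not called in males with the RNA integrity number (1.00, adjusted p 0.219) or at 11 weeks alone (1.01, 0.0681).

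Among target genes outside the CYP1 family, 13 of 16 were measured. In females 1 was called higher and 3 lower (median -0.68), and in males 2 were called higher and 7 lower (median -0.97), against 10.9% and 11.6% of all genes in females and 14% and 17.8% in males. The 3 with the largest male change were all lower. For Serpinb2 in males, the p given beside the bound is that of the fit of the signals as read. Serpinb2, a protease inhibitor, was under background on all 6 male olfactory arrays and at least 24-fold lower in males (limma adjusted p 2.88e-07), and changed by -4.24 in females (SE 0.94, limma adjusted p 0.00298), where 1 of 2 olfactory arrays was over background and leaving out female olfactory 6 ended the call (-2.56, adjusted p 0.21). Aldh3a1, an aldehyde dehydrogenase, changed by -2.51 in females (SE 0.45, limma adjusted p 0.000458) and -3.67 in males (SE 0.32, limma adjusted p 1.72e-08). Xdh, xanthine dehydrogenase, changed by -2.66 in females (SE 0.40, limma adjusted p 6.99e-05) and -2.36 in males (SE 0.28, limma adjusted p 1.12e-06). The other direction was taken by Slc7a5, an amino acid transporter, which rose in females (limma adjusted p 0.000902) and by 1.23 in males (7.52e-05), and by Gsta1, a glutathione transferase, which rose by 1.37 in males (0.0049) and was at 1.26 in females (0.0808). These 2 were named after their values were seen, as the targets called higher. With the RNA integrity number the female calls of Serpinb2 (-4.34, limma adjusted p 0.105) and Xdh (-1.83, 0.0581) were lost.

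Enzymes that form receptor ligands from tryptophan were measured for 12 of 15 genes, of which 2 were called higher and 0 lower in females (median -0.12) and 2 higher and 1 lower in males (median 0.25). The called share was 2 of 12 in females and 3 of 12 in males, against 22.5% and 31.8% of all genes. Ddc, which decarboxylates aromatic amino acids, rose by 2.11 in females (SE 0.36, limma adjusted p 0.000272) and by 1.97 in males (SE 0.25, limma adjusted p 3.08e-06). Aadat, an aminotransferase of the kynurenine pathway, rose by 1.52 in females (SE 0.49, limma adjusted p 0.0331) and 1.01 in males (SE 0.35, limma adjusted p 0.0344), where it was over background on both female olfactory arrays and 2 of 6 female respiratory arrays, and on 4 of 6 male olfactory and 1 of 6 male respiratory arrays. Kmo, kynurenine monooxygenase, was -0.99 in females (limma adjusted p 0.335) and lower in males at -1.37 (SE 0.47, limma adjusted p 0.035). The male call of Kmo was lost without any 1 of 7 arrays (male olfactory 1, 2 or 4 or male respiratory 3, 4, 7 or 8, adjusted p up to 0.0848). That of Aadat was lost without any 1 of 5 (male olfactory 2, 4 or 10 or male respiratory 2 or 8, up to 0.0998) and its female call without female olfactory 6 or 8 or female respiratory 4 or 9 (up to 0.232). With the RNA integrity number the calls of Aadat (1.37, limma adjusted p 0.35 in females and 1.01, 0.427 in males) and of Kmo in males (-1.43, 0.422) were lost, and Aadat was also not called over the males of 11 weeks alone (0.88, 0.228).

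Other electron donors beside Por were measured for 8 of 10 genes, with 1 called higher and 1 lower in each sex (median 0.34 in females and 0.32 in males). That is 2 of 8 called, against 22.5% of all genes in females and 31.8% in males. Cyb5r2, a cytochrome b5 reductase, rose by 0.96 in females (SE 0.30, limma adjusted p 0.0272) and 1.07 in males (SE 0.21, limma adjusted p 0.000461). Cyb5b, the mitochondrial cytochrome b5, changed by -0.83 in females (SE 0.29, limma adjusted p 0.0484) and -0.72 in males (SE 0.20, limma adjusted p 0.0109). Cyb5a, the microsomal form, was at 0.62 in females (limma adjusted p 0.205) and 0.58 in males (limma adjusted p 0.0726), neither called, though with quantile normalization Cyb5a passed in males (0.61, adjusted p 0.00427). The female call of Cyb5r2 was lost without female olfactory 6 or 8 or female respiratory 3 or 4 (adjusted p up to 0.332), and that of Cyb5b without any female array other than female respiratory 8 (up to 0.366). Neither was called in either sex when the RNA integrity number was in the fit (limma adjusted p 0.256 to 0.54).

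Genes of haem synthesis and breakdown, which set the supply of the P450 cofactor, were measured for 12 of 13, with 2 called higher and 1 lower in females (median 0.04) and 2 higher and 4 lower in males (median -0.16), against 10.9% and 11.6% of all genes in females and 14% and 17.8% in males. Alas2, the erythroid form of the first enzyme, was at -1.19 in females (limma adjusted p 0.202) and fell by 2.24 on the log2 scale in males (SE 0.44, limma adjusted p 0.000511). The biliverdin reductases went opposite ways in both sexes. Blvrb rose by 1.91 in females (SE 0.34, limma adjusted p 0.000444) and 1.62 in males (SE 0.24, limma adjusted p 2.02e-05), and Blvra changed by -1.01 in females (SE 0.25, limma adjusted p 0.00742) and -1.31 in males (SE 0.18, limma adjusted p 7.09e-06). The female call of Blvra was lost without female olfactory 8 (-0.74, adjusted p 0.163). Under the RNA integrity covariate Blvrb was at 1.06 in females (limma adjusted p 0.0853) and 0.99 in males (0.0524), and Blvra at -1.06 in females (0.123), none of them called.

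Conjugating and related enzymes that act after CYP1 oxidation were measured for 12 of 13, with 3 called higher and 0 lower in females (median -0.35) and 3 higher and 2 lower in males (median -0.27). The called share was 3 of 12 in females and 5 of 12 in males, against 22.5% and 31.8% of all genes. Ugt2a1, the olfactory glucuronosyltransferase, which is also in the supporting cell list, rose by 2.26 in females (SE 0.59, limma adjusted p 0.00962) and 2.80 in males (SE 0.42, limma adjusted p 2.02e-05). Sult1a1, a phenol sulfotransferase, rose by 1.48 in females (SE 0.39, limma adjusted p 0.0105) and 1.03 in males (SE 0.28, limma adjusted p 0.00757). The female calls of both rest on female olfactory 6 (without it, Ugt2a1 2.11, adjusted p 0.125, and Sult1a1 1.24, adjusted p 0.177), and that of Ugt2a1 also on female olfactory 8 (without it, adjusted p 0.0605). When the RNA integrity number entered the fit, Sult1a1 was at 0.33 in females (limma adjusted p 0.795) and 0.00 in males (0.998), and at 0.61 (0.102) over the males of 11 weeks alone. Under the same covariate Ugt2a1 was at 1.15 in females (limma adjusted p 0.396) and kept its call in males (2.22, 0.027). Gstp1, a glutathione transferase, was at -0.99 in females (limma adjusted p 0.118, but 0.0429 with quantile normalization) and lower in males at -1.26 (SE 0.31, limma adjusted p 0.0034), and at -2.15 in males with the RNA integrity number (limma adjusted p 0.0129). With the RNA integrity number in the fit the target list had 0 called higher and 1 lower in females and 0 and 3 in males, and the conjugating list 0 and 0 in females and 1 and 1 in males. In these 6 lists together no gene was called between the sexes or in the interaction (0 of each).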

How the data were processed

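Signals of 31099 probe sets on 20 rat arrays were taken as deposited, 1 column per sample. The deposited values are a linear intensity per probe set. They were made with GCOS 1.0 per the submitters' processing notes, while the summary algorithm is not given in the sources used here, nor is its scaling target. Each array had a 2% trimmed mean of 500.1 to 500.3, and this scaling was kept. Trizol and a Qiagen kit served for extraction per the labels' protocols. After 57 control probe sets were left out, 31042 were tested, of which 20826 had 1 gene symbol, 436 several and 9780 none here.

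A pseudocount of 16 was added before the log2 step. With limma 3.58.1 (R 4.3.3), a linear model was fitted to 4 group means with an intensity trend, two-sided, with 5 contrasts, each adjusted by Benjamini-Hochberg. Background on each array was percentile 95 of the signals of its 27 bacterial controls. Where all arrays of the dim group were at or under it, a bound is given. For it, each dim signal was replaced by the background of its array where that was higher. The p beside a bound is that of the fit, in which no signal was replaced. The arrays of a group are separate rats by their labels, so p-values rest on the spread between rats, whose number sets the precision. That spread is pooled over the 4 groups, and the main fit does not use the pairing of tissues. Where the spreads of groups differ, as for Cyp1a2, it is not the spread of the groups compared. Correlations used scipy 1.17.1. Both procedures were tested on simulated data. For the permutation test, unrelated values were simulated only for as many arrays as a single sex has. At the number of all respiratory arrays only a strong relation was simulated.

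The 2 arrays of a rat are paired by the labels. Their deviations from the group means correlated by -0.184 to 0.246 over 7 rats, with a consensus correlation of 0.039. The animal as a fixed or random replicate block was an alternative, and with the random block 5663 probe sets passed in females and 8034 in males.

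The genes named are all members, the 3 genes of each list with the largest change in males, and the 3 genes most like each member. Members and lists were chosen with earlier results of these data known. Alternatives were quantile normalization, pseudocounts of 1 and 64, no intensity trend, a filter on dim probe sets, RNA integrity number and age as covariates, means over probe sets and leaving out arrays.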

Additional observations from a re-analysis of the deposited data

Results flagged for a closer look

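In 4 of 33 sets of 6 arrays of a group the lowest or highest array lay far from the others, by the ratio of its gap to the whole range. Chance alone flags about 1 in 20 such sets. Ahr probe set 1369146_a_at was at log2 7.00 on female respiratory 8 (signal 112), where the next array of that group was at 8.31. Ahr probe set 1369147_at was at 4.37 on male respiratory 8 (signal 4.74), next to 5.97. The brighter Tiparp probe set was at 8.71 on male respiratory 7 (signal 403), next to 9.59, and at 10.16, the highest of its group, on female respiratory 8 (signal 1127), next to 9.73. Female respiratory 8 and male respiratory 7 are also the arrays that stand apart from the other respiratory arrays over all probe sets. Without both, 8484 probe sets were called between the tissues in females, against 5571 with them, and the list of receptor partners had 0 genes higher and 7 lower in females and 2 higher and 6 lower in males.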

How the results depend on the processing

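The 12 called results of the members gave 256 values under the alternatives, of which 218 kept their call and direction, 38 lost the call and 0 turned. Of 986 values of the 43 uncalled results, 1 gained a call (Por 1368213_at in females without female respiratory 3: 1.37, adjusted p 0.0469) and 89 changed sign. The replicate block changed no other call of a member than that of Arnt in males, and of the named list genes it ended that of Aadat in males (0.79, adjusted p 0.168, fixed block). Arnt in males was also not called over rats of 11 weeks alone (-0.98, adjusted p 0.288), and Por in females not with the mean of its probe sets (1.28, adjusted p 0.0522). Of the 29 called results of named list genes, 65 of 624 values lost the call and 1 turned, Sult1a1 in males with the RNA integrity number (0.00). Female olfactory tissue with 2 arrays and signals near background (Arnt, Ahrr, the second Ahr probe set) limit the precision most.

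Some counts of called probe sets moved by over 1.5 times and are given here beside others that did not. The tissue counts on the 17 arrays with an RNA integrity number, without that number in the fit, moved less. So did the leave-one-out counts in males and between the sexes in respiratory tissue. The female minus male count in olfactory tissue, 13, was 22 with quantile normalization, 29 with a pseudocount of 1, 23 without the intensity trend, 27 on arrays with an RNA integrity number and 26 without the 2 arrays apart. The interaction count, 0 (1516 at an unadjusted p under 0.05), was 1 with quantile normalization, 4 and 1 with pseudocounts of 1 and 64 and 2 without the trend. The female tissue count of 5571 was 6235 on the 17 arrays with an RNA integrity number, 1133 on these with that number in the fit and 8484 without the 2 arrays apart, and the male count of 7824 was 7203 on those arrays and 2347 with that number. Leaving out single arrays gave 1977 to 7361 in females, 6807 to 8598 in males, 8 to 26 between the sexes in olfactory tissue, 7 to 9 in respiratory tissue and 0 to 2 in the interaction. Correlations with neuron markers that moved or lost their call were those of Cyp1a1 (0.81 in females, 0.65 in males, 0.69 without the 2 farthest arrays), Cyp1a2 (0.95 in females), Cyp1b1 (-0.90 in males, -0.39 without the farthest arrays), Ahr (0.01 in females), Ahrr (-0.12 in females, -0.06 with sustentacular markers), Tiparp (0.12) and Por (-0.10), both without the farthest arrays. Without the 2 arrays apart, Tiparp was at r -0.63 (-0.02 with them) and its rho of -0.77 gained a call (adjusted p 0.0334), and Por was at r 0.65 (0.34 with them). The causes were not tested.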
